A study of Homo sapiens with 4 samples.

Results

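The hypoxia-inducible factor (HIF) axis was followed through 10 genes picked by symbol from the count tables. They are the subunit genes HIF1A, EPAS1 and ARNT and the hypoxia targets VEGFA, DDIT4, KDM3A, CA9, ADM, BNIP3 and ANKRD37. The tables list 56655 gene symbols, of which 16417 passed the filter on low counts and were tested, and all 10 genes were among those tested. In the libraries labelled shFOXK2, 7 of the 10 were lower than in control libraries past an adjusted p of 0.05, and 0 were higher. Such calls were common, since 22.7% of all tested genes were lower and 25.7% were higher.

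HIF is a pair of proteins: an oxygen-regulated alpha subunit, HIF-1α (HIF1A) or HIF-2α (EPAS1), and the constant partner ARNT. When oxygen is plentiful, prolyl hydroxylases mark the alpha subunit and the VHL ubiquitin ligase has it degraded, so the pathway is governed mostly at the level of protein. When oxygen is low, the pair binds a short DNA core and raises genes for vessel growth, glucose uptake, glycolysis and pH control. VEGFA in particular drives the vessels and ascites of ovarian tumors, and several of these genes are also raised by the unfolded protein response factors XBP1 and ATF4.

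RNA came from OVCAR5, an established human ovarian cancer cell line labelled high grade serous, grown in RPMI with serum, and no sample was labelled as kept at low oxygen. Control cells (shCtrl, n = 2 libraries) carried a nontargeting hairpin and the others (shFOXK2, n = 2 libraries) a hairpin against the forkhead factor gene FOXK2. Both groups were stable lentiviral lines under puromycin, and the knockdown group is 1 hairpin in 1 cell line. Levels are CPM, that is counts scaled by the TMM-adjusted library total, with means as mean ± SD of 2 libraries, and library totals ran from 14284005 to 21950873 counts. FOXK2 itself was 86.8 ± 9.10 CPM in shCtrl and 67.8 ± 11.9 CPM in shFOXK2 (SD, n = 2 each; log2 fold change −0.36, SE 0.25, adjusted p 0.257). The targeted transcript thus did not pass the test, and directions below are between libraries as labelled. Epithelial markers summed to 4070 and 5440 CPM in shCtrl and to 4070 and 5280 CPM in shFOXK2, although CDH1 among them had a log2 fold change of −4.02 (adjusted p 5.12e-06). Ovarian markers summed to 36.9 and 33.2 CPM in shCtrl against 18.8 and 16 CPM in shFOXK2, with MUC16 and PAX8 lower (log2 fold changes −5.76 and −0.88), MSLN higher (1.10) and WT1, SOX17 and EMX2 at 3 counts or fewer in each library. Gastrointestinal markers summed to between 8.16 and 13.7 CPM, most of it from CDX2. CDX2 was at 10.3 and 13.3 CPM in shCtrl against 8.84 and 6.85 CPM in shFOXK2 (log2 fold change −0.59, adjusted p 0.138). LGALS4 was higher but low, at 3 and 1 counts against 15 and 16 (log2 fold change 3.13, adjusted p 0.00143). CDX1, GPA33 and TFF3 held 3 counts or fewer in each library and VIL1 at most 7. MALAT1, a long noncoding RNA kept in the nucleus, was at 419.7 and 249.5 CPM in shCtrl against 11920 and 9944 CPM in shFOXK2 (log2 fold change 5.03, SE 0.36, adjusted p 7.36e-07). These shifts go with the groups, and their part in the values below was not tested.

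Levels per kilobase of transcript placed HIF1A at the top of the axis in control cells. The scale is RPKM, the CPM divided by the length of the canonical transcript in kilobases. HIF1A stood at 121 ± 55.4 RPKM in shCtrl (SD, n = 2), ahead of ADM at 67.1 ± 7.10, EPAS1 at 31.6 ± 0.268 and DDIT4 at 17.5 ± 4.04 RPKM. KDM3A (12.6 ± 4.76), ARNT (11.6 ± 0.0762) and VEGFA (10.8 ± 1.77 RPKM) followed, and CA9 (2.27 ± 0.380), ANKRD37 (2.06 ± 0.569) and BNIP3 (0.706 ± 0.0281 RPKM) were lowest. Among neighbours in this order the libraries of DDIT4, KDM3A, ARNT and VEGFA overlapped one with the next, as did those of CA9 and ANKRD37. In shFOXK2 cells ADM came first, at 53.7 ± 4.10 RPKM, with HIF1A at 46.3 ± 7.67 RPKM overlapping it, and CA9 came last, at 0.346 ± 0.0884 RPKM.

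The 3 subunit genes were each lower in shFOXK2 libraries. In hg38 (GENCODE v44) HIF1A lies at chr14:61695513-61748259 and EPAS1 at chr2:46293667-46386697, both on the plus strand, and ARNT at chr1:150809713-150876708 on the minus strand. HIF1A, the broadly expressed alpha subunit, was at 631 and 322 CPM in shCtrl and at 204 and 161 CPM in shFOXK2. The groups did not overlap, although shCtrl replicate 1 stood far above shCtrl replicate 2. HIF1A-AS1, on the opposite strand, and HIF1A-AS2, whose strand was not given, overlap HIF1A and held at most 8 and 13 counts in a library. Larger overlaps had no counts under their names. These were HIF1A-AS3 on the opposite strand (40962 bases) and the noncoding gene ENSG00000258964 on the same strand (14122 bases). HIF1A kept 38.4% of its control mean (log2 fold change −1.38, SE 0.30, adjusted p 0.00216). EPAS1, the alpha subunit best known from endothelial and kidney cells, was at 164 and 162 CPM in shCtrl against 83.5 and 66.0 CPM in shFOXK2 (log2 fold change −1.12, SE 0.24, adjusted p 0.00183). ARNT, the shared partner, was at 55.0 and 54.5 CPM against 21.9 and 22.6 CPM (log2 fold change −1.30, SE 0.25, adjusted p 0.000986). Replicates of ARNT lay closer together than those of nearly all genes, since 97.1% of tested genes differed at least as much between the shCtrl libraries and 90.9% between the shFOXK2 libraries.

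The control libraries of HIF1A lay far apart. Replicate 1 exceeded replicate 2 by 0.97 on the log2 scale, and 8.0% of tested genes were at least that far apart. KDM3A showed the next widest gap of the 10 genes, 0.79, which 12.7% of tested genes matched or passed. HIF1A and KDM3A transcripts also hold the most A among the 10, 31.2% and 30.3%, and genes of similar A content (within 1 percentage point) had median gaps between the shCtrl libraries of 0.56 (1666 genes) and 0.49 (2042 genes). The part of base composition in these gaps was not tested. Without shCtrl replicate 1 the log2 fold change of HIF1A was −0.85 (adjusted p 0.0109) and that of KDM3A −0.71 (adjusted p 0.0497), and without shCtrl replicate 2 they were −1.86 and −1.54.

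The balance of the subunit transcripts moved less than their levels. Per kilobase, HIF1A exceeded EPAS1 by 5.04 and 2.60 times in shCtrl and by 3.19 and 3.20 times in shFOXK2, so the shFOXK2 ratios lay between those of the controls. EPAS1 exceeded ARNT by 2.72 and 2.71 times in shCtrl and by 3.49 and 2.67 times in shFOXK2. HIF3A, the third alpha subunit gene, had 0 counts in both shCtrl libraries against 4 and 12 in shFOXK2, which was too few to test. ARNT2, a paralog of ARNT, went from 94.7 ± 2.70 to 30.5 ± 3.97 CPM (log2 fold change −1.63, SE 0.25, adjusted p 0.000196).

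**Figure D1:**
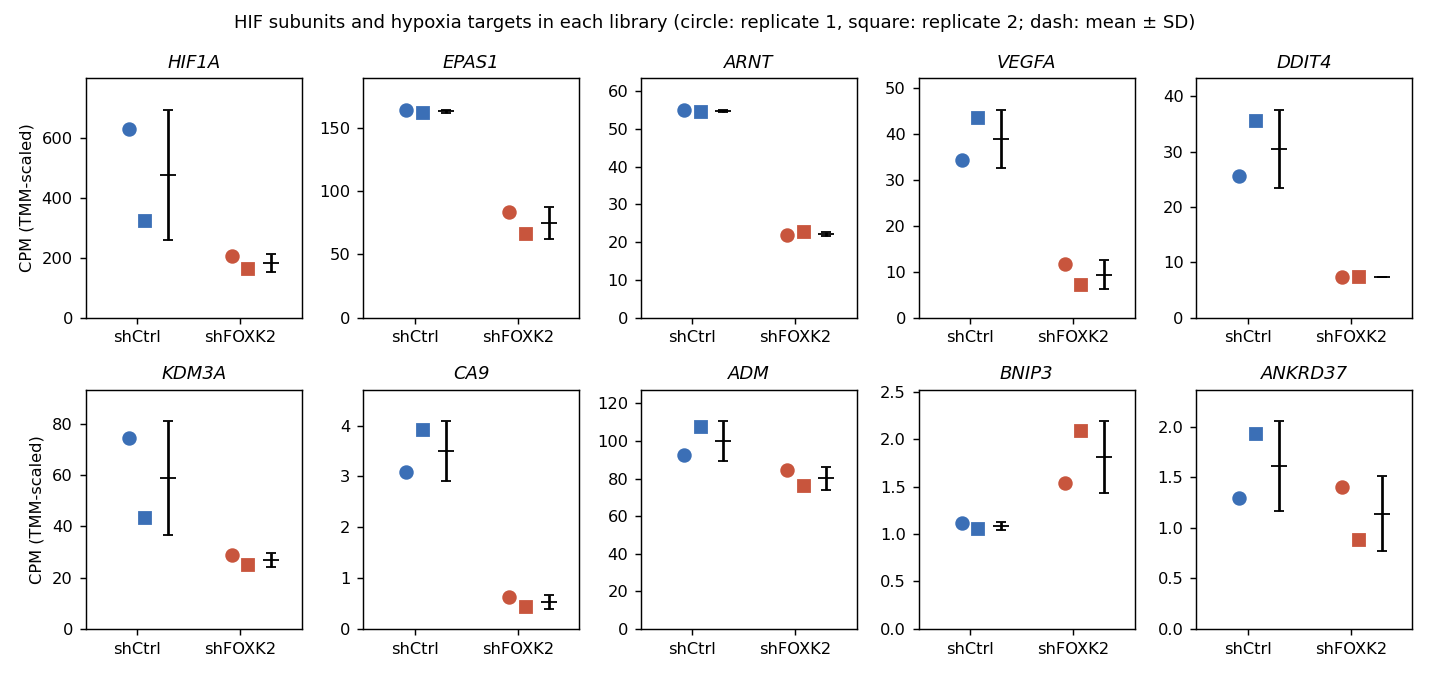
Scaled CPM of the 10 genes in each library, with a linear axis from 0 in each panel; circles are replicate 1, squares replicate 2, and dashes with bars the mean ± SD of 2 libraries. For 8 genes both shFOXK2 libraries lie below both shCtrl libraries, BNIP3 lies above, and ANKRD37 overlaps.

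Among the target genes, VEGFA, DDIT4, CA9 and KDM3A were lower in shFOXK2 and ADM, BNIP3 and ANKRD37 did not pass the test. VEGFA, which encodes the main growth factor of new vessels, lies at chr6:43770184-43786487. Its level was 34.3 and 43.4 CPM in shCtrl and 11.7 and 7.07 CPM in shFOXK2, so that the groups stood well apart and 24.1% of the control mean was left (log2 fold change −2.06, SE 0.31, adjusted p 0.000178). DDIT4 (chr10:72273919-72276036), whose product REDD1 restrains the kinase mTORC1 under stress, was at 25.6 and 35.5 CPM in shCtrl and at 7.37 and 7.40 CPM in shFOXK2. Its shFOXK2 replicates nearly coincided, and its log2 fold change was −2.05 (SE 0.30, adjusted p 0.000130). KDM3A (chr2:86440647-86492716), a histone H3 lysine 9 demethylase, was at 74.6 and 43.2 CPM against 29 and 25 CPM, without overlap (log2 fold change −1.12, SE 0.30, adjusted p 0.00672).

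CA9, the membrane carbonic anhydrase used in pathology as a marker of hypoxic tumor tissue, fell most of the 10 genes but from a low level. Its counts were 69 and 63 in shCtrl against 9 and 8 in shFOXK2, that is 3.09 and 3.92 CPM against 0.631 and 0.438 CPM. The log2 fold change was −2.71 (SE 0.45, adjusted p 0.000317), leaving 15.3% of the control mean. CA9 (chr9:35673928-35681159) shares 1939 bases with ARHGEF39 on the opposite strand, whose counts were 425 and 356 in shCtrl against 739 and 772 in shFOXK2. Strand handling is not given in the sources used here, so reads of such a pair cannot be told apart.

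ADM (chr11:10305073-10307397), which encodes the vessel-dilating peptide adrenomedullin, was the most abundant target and the least different. Its level was 92.7 and 108 CPM in shCtrl and 84.5 and 75.8 CPM in shFOXK2, with both shFOXK2 libraries below the controls (log2 fold change −0.32, SE 0.24, adjusted p 0.286). That log2 difference went to 0.015 with a smooth offset on transcript A content, so its direction rests on the scaling. ANKRD37 (chr4:185396021-185400628), a small ankyrin-repeat protein gene, was counted 29 and 31 times in shCtrl against 20 and 16 in shFOXK2. In CPM its groups overlapped, at 1.30 and 1.93 against 1.40 and 0.876 (log2 fold change −0.50, SE 0.45, adjusted p 0.377). It shares 1092 bases with UFSP2 on the other strand, which was counted 164 and 92 times in shCtrl against 111 and 138 in shFOXK2.

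BNIP3 (chr10:131967684-131981967), which encodes a mitochondrial protein of mitophagy and cell death, was low in each library. It was counted 25 and 17 times in shCtrl against 22 and 38 in shFOXK2, or 1.12 and 1.06 CPM against 1.54 and 2.08 CPM. Both shFOXK2 libraries were above the controls, but the log2 fold change of 0.74 (SE 0.42, adjusted p 0.158) did not pass. The tables also list 39 numbered BNIP3 pseudogenes, which summed to between 1 and 17 counts per library. Reads that fit BNIP3 and a pseudogene equally well may be lost in counting, and whether that lowered BNIP3 was not tested. Its relative BNIP3L was counted 1057 and 458 times in shCtrl against 129 and 432 in shFOXK2 (log2 fold change −1.21, SE 0.39, adjusted p 0.0220). Without shFOXK2 replicate 1 its log2 fold change was −0.70 (adjusted p 0.126), without shFOXK2 replicate 2 it was −2.10, and with library size alone as the scaling the adjusted p was 0.0746.

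The 10 genes were then read against all genes. Of the 16417 genes tested, 22.7% were lower in shFOXK2 past the threshold and 25.7% were higher, beside 7 and 0 of the 10. The shFOXK2 pair lay wholly below the shCtrl pair for 8 of the 10, against 36.3% of tested genes. The median log2 fold change of the 10 was −1.21, and that of all tested genes 0.042. The count of 0 higher came from the edgeR quasi-likelihood test, and it was also 0 at an unadjusted p under 0.05 and by the edgeR exact test and DESeq2. In bulk RNA, fewer cells that express a gene and less RNA per cell cannot be told apart.

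**Figure D2:**
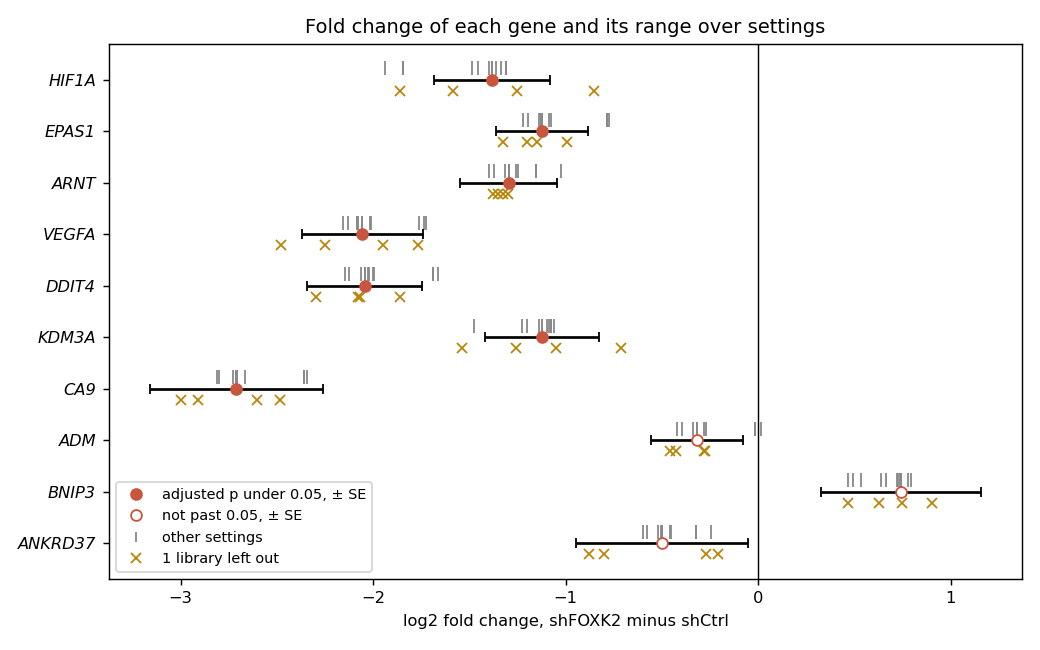
Log2 fold change (shFOXK2 minus shCtrl) of the 10 genes with its standard error, filled where the adjusted p is under 0.05; grey ticks are other settings and crosses are fits with 1 library left out. VEGFA, DDIT4 and CA9 stay below −1.6 in each fit drawn, while ADM reaches 0.015.

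Fold changes in these libraries rose with transcript A content among A-rich transcripts. In steps starting at 18% to 26% A the median log2 fold change stayed between −0.43 and −0.30. Above that it rose, to 0.61 in the step from 31%. Each gene was therefore also set beside genes of like composition. Genes within 1 percentage point of HIF1A had a median log2 fold change of 0.51, while HIF1A was at −1.38, and those near KDM3A had 0.32, while KDM3A was at −1.12. Genes near DDIT4 (19.6% A, 1440 genes) had −0.36, against −2.05 for DDIT4, and those near VEGFA (24.8% A, 1730 genes) had −0.33, against −2.06. Genes near ADM (22.2% A) had −0.32, the same as ADM to 2 decimals. With the offset on A content, HIF1A moved to −1.94 with an adjusted p of 0.000403, and KDM3A also grew in size, to −1.475. The other lower genes shrank in size, to −0.777 for EPAS1, −1.023 for ARNT, −1.726 for VEGFA, −1.664 for DDIT4 and −2.345 for CA9.

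**Figure D3:**
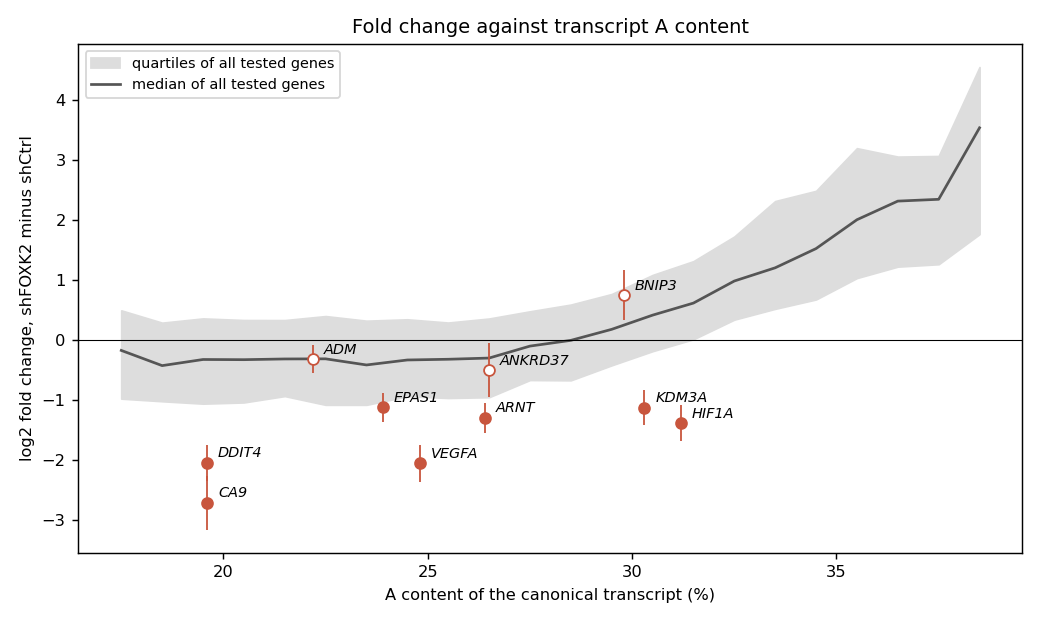
Log2 fold change (shFOXK2 minus shCtrl) of the 10 genes, ± SE, against the A content of the canonical transcript in percent; the line and band are the median and quartiles of all tested genes in steps of 1 percentage point, with the first and last steps open-ended. The 7 filled points, past an adjusted p of 0.05, lie under the band, and ADM, BNIP3 and ANKRD37 lie within it.

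Promoter sequence was read to see which of the 10 carry the DNA core that HIF binds. RefSeq promoter records (GRCh38.p14) matched 9 of the 10 by symbol, VEGFA being without an entry, in 11 records, since HIF1A and KDM3A have 2 each, and the 250 bases before the RefSeq start were searched on both strands. That start can lie inside the GENCODE span given above, by 3740 bases for EPAS1 and 2199 for the second HIF1A record. It lies inside by 724 and 814 bases for the KDM3A records, 820 for ANKRD37, 109 for ARNT, 44 for BNIP3 and 5 for DDIT4. For CA9, ADM and the first HIF1A record it is the same. The core ACGTG was found in 4 of the 11 records (DDIT4, CA9, BNIP3 and ANKRD37) and in 18.5% of all 35116 promoter records. The variant core GCGTG was found in 7 of the 11 (EPAS1, DDIT4, ADM, BNIP3, both of KDM3A and 1 of HIF1A) and in 32.2% of all records. The 2 KDM3A records overlap and their matches are the same site, so that by gene the variant core was found in 6 of the 9. The forkhead motif TGTTTAC was found in 0 of the 11 and in 2.98% of all records, which says only that these letters are not in this window. The stretches with ACGTG are shown because 2 of the genes fell (DDIT4, CA9) and 2 did not pass the test (BNIP3, ANKRD37). Capitals mark either core or its reverse complement, and a palindrome of both strands counts as 2 overlapping matches. The DDIT4 stretch is chr10:72273774-72273828 (plus strand), CA9 is chr9:35673885-35673927 (plus), BNIP3 is chr10:131982023-131982082 (minus) and ANKRD37 is chr4:185396654-185396727 (plus), each printed 5′ to 3′ in the direction of the gene.
DDIT4: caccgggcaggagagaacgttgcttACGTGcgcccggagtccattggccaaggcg
CA9: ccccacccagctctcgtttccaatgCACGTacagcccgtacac
BNIP3: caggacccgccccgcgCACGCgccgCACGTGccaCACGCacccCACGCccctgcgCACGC
ANKRD37: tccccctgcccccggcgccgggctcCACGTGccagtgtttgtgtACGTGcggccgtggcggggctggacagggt

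In the whole window BNIP3 held 2 ACGTG and 4 GCGTG matches, ANKRD37 held 3 ACGTG, DDIT4 held 1 ACGTG and 2 GCGTG, and CA9 held 1 ACGTG. A match is a description of letters and not a bound site.

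The genes that sense oxygen and turn HIF over were then counted, from a list of 24 general-knowledge genes of which 23 were tested. Of these, 9 were lower, 1 was higher and 13 did not pass, with a median log2 fold change of −0.0048. The shares over all tested genes were 22.7% lower and 25.7% higher. EGLN3, a prolyl hydroxylase that is itself raised by HIF, went from 23.6 ± 1.55 to 9.36 ± 0.0628 CPM (log2 fold change −1.33, SE 0.28, adjusted p 0.00166). CITED2, which competes with HIF for the coactivators p300 and CBP, went from 116 ± 2.15 to 34.7 ± 4.35 CPM (log2 fold change −1.73, SE 0.25, adjusted p 0.000118). EGLN1, the main prolyl hydroxylase, VHL and HIF1AN, the asparaginyl hydroxylase, had log2 fold changes of −0.70, −0.70 and −0.66 with adjusted p of 0.0264, 0.0271 and 0.0337. Under the A-content offset their adjusted p rose to 0.0885, 0.0816 and 0.116, so these 3 calls rest on the scaling. They rest on single libraries too, since EGLN1 was lost without shCtrl replicate 1 (0.0882) or shFOXK2 replicate 2 (0.136), VHL without either shFOXK2 library (0.0898 and 0.107) and HIF1AN without shCtrl replicate 2 (0.0642) or either shFOXK2 library (0.0725 and 0.152). Without shFOXK2 replicate 2 the list held 5 lower genes in place of 9. ELOC, a subunit of the VHL ligase, was the 1 higher gene, at 41.2 ± 0.865 CPM in shCtrl and 123 ± 23.2 CPM in shFOXK2 (log2 fold change 1.58, SE 0.25, adjusted p 0.000248). Its transcript is 31.4% A, its log2 fold change was 0.87 with the A-content offset, and under the A-content offset 8 genes of the list were higher instead of 1.

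The ligands and receptors around VEGFA had 10 genes, of which 5 were tested. Besides VEGFA, NRP1, which encodes a VEGF co-receptor, was lower, at 283 and 242 CPM in shCtrl and 102 and 96 CPM in shFOXK2 (log2 fold change −1.41, SE 0.23, adjusted p 0.000319). PGF, placenta growth factor, was higher, at 23.2 and 26.8 CPM against 42.4 and 46.7 CPM (log2 fold change 0.84, SE 0.26, adjusted p 0.0155), a call that was lost without shCtrl replicate 1 (adjusted p 0.0608) or without shFOXK2 replicate 2 (0.103). VEGFB did not pass (log2 fold change −0.26, SE 0.24, adjusted p 0.387), and neither did NRP2 (log2 fold change 0.57, SE 0.27, adjusted p 0.103), although NRP2 passed with an offset on GC or A content (adjusted p 0.00740 and 0.00737). The tyrosine kinase receptors FLT1, KDR and FLT4 had at most 9 counts in any library and VEGFC had 0 counts in each, where 3 counts correspond to between 0.137 and 0.210 CPM. The list of endothelial, stromal and blood markers summed to 16.3 and 13.1 CPM in shCtrl and to 1.05 and 2.52 CPM in shFOXK2, with 3 of its 7 genes lower past the threshold and TEK, COL1A2 and PTPRC at 3 counts or fewer in each library. Each library is labelled as the OVCAR5 line, so these are levels of marker genes and not a measure of other cells. Their relation to the VEGF values was not tested.

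Paralogs and partners of the targets did not all move with them. KDM3B, a paralog of KDM3A, was lower (log2 fold change −0.81, SE 0.23, adjusted p 0.0101), while JMJD1C, another paralog, was higher, at 19.9 and 12.6 CPM in shCtrl and 79.2 and 134 CPM in shFOXK2. The log2 fold change of JMJD1C was 2.71 (SE 0.33, adjusted p 3.51e-05), it was 1.36 with the A-content offset, and its transcript is 33.6% A. CA12, the other tumor-associated membrane carbonic anhydrase, was higher at 59.1 and 54.6 CPM against 124 and 154 CPM (log2 fold change 1.29, SE 0.24, adjusted p 0.000792), opposite to CA9. ADM2, a relative of ADM, went from 6.78 ± 0.975 to 2.01 ± 0.828 CPM (log2 fold change −1.76, SE 0.39, adjusted p 0.00222). RAMP1, a partner of the receptors of this peptide family, was lower (log2 fold change −1.38, SE 0.36, adjusted p 0.00692), and CALCRL, the receptor of ADM itself, had at most 13 counts. DDIT4L had 0 counts in each library.

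**Figure D4:**
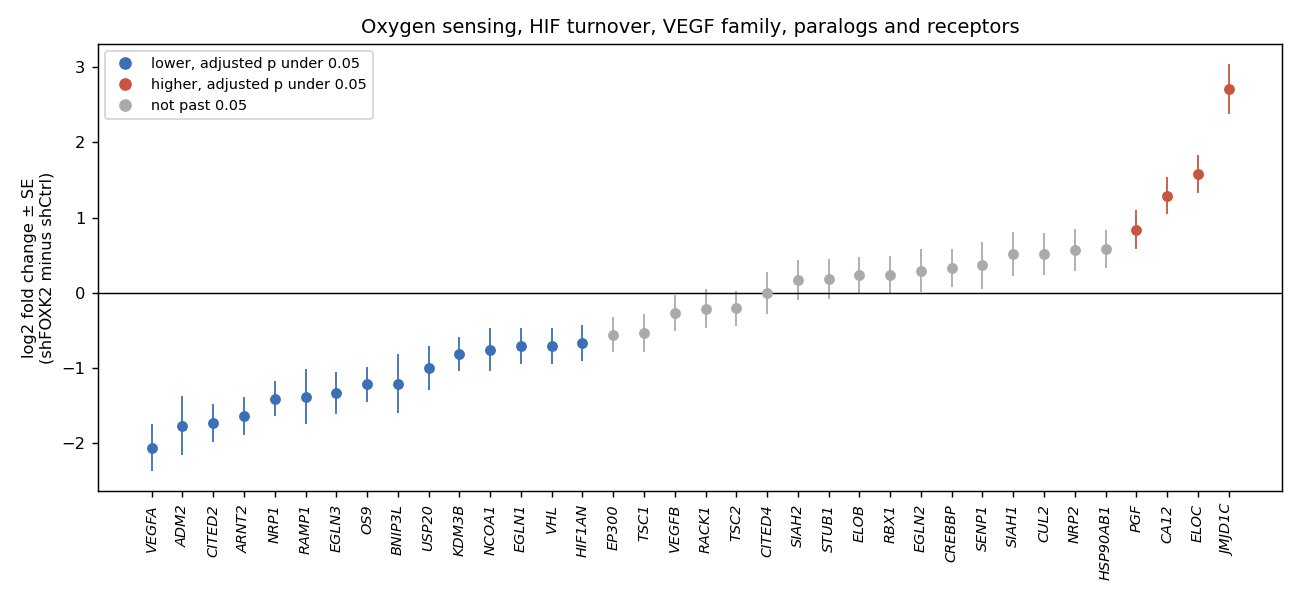
Log2 fold change (shFOXK2 minus shCtrl) ± SE of the tested genes for oxygen sensing and HIF turnover, the VEGF family and the paralogs and receptors, sorted by value and colored by call. VEGFA is the lowest, at −2.06, and JMJD1C the highest, at 2.71.

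Beyond the 10 genes, 49 other genes known to respond to hypoxia were counted, 3 of which also stand in the oxygen-sensing list. Lower past the threshold were 30 of the 49 and higher were 3, while 16 did not pass, and the median log2 fold change was −0.96. Among all tested genes 22.7% were lower and 25.7% higher. The largest fall was in SLC2A3, the glucose transporter GLUT3, from 102 ± 3.0 to 3.02 ± 0.605 CPM (log2 fold change −5.07, SE 0.31, adjusted p 3.16e-07). BHLHE40, a transcriptional repressor, had a log2 fold change of −2.94, ALDOC, an aldolase, −2.84, LOX, the collagen cross-linking enzyme, −2.57, and NDRG1, a stress-responsive gene, −2.14, with adjusted p from 8.35e-06 for ALDOC to 5.13e-05 for LOX. SLC2A1, the transporter GLUT1, went from 434 ± 50.3 to 144 ± 17.1 CPM (log2 fold change −1.59, SE 0.24, adjusted p 0.000152). Besides CA12 the higher genes were RORA and HILPDA, chosen after their values were seen, with log2 fold changes of 1.52 and 0.87 (adjusted p 0.00684 and 0.0390). Of the 12 settings that left out no library, RORA passed in 9 and HILPDA in 8. Among others, the call of RORA was lost with an offset on GC content (adjusted p 0.125) and that of HILPDA by DESeq2 (0.105). With 1 library left out the log2 fold change ran from 1.09 to 2.03 for RORA and from 0.60 to 1.05 for HILPDA.

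**Figure D5:**
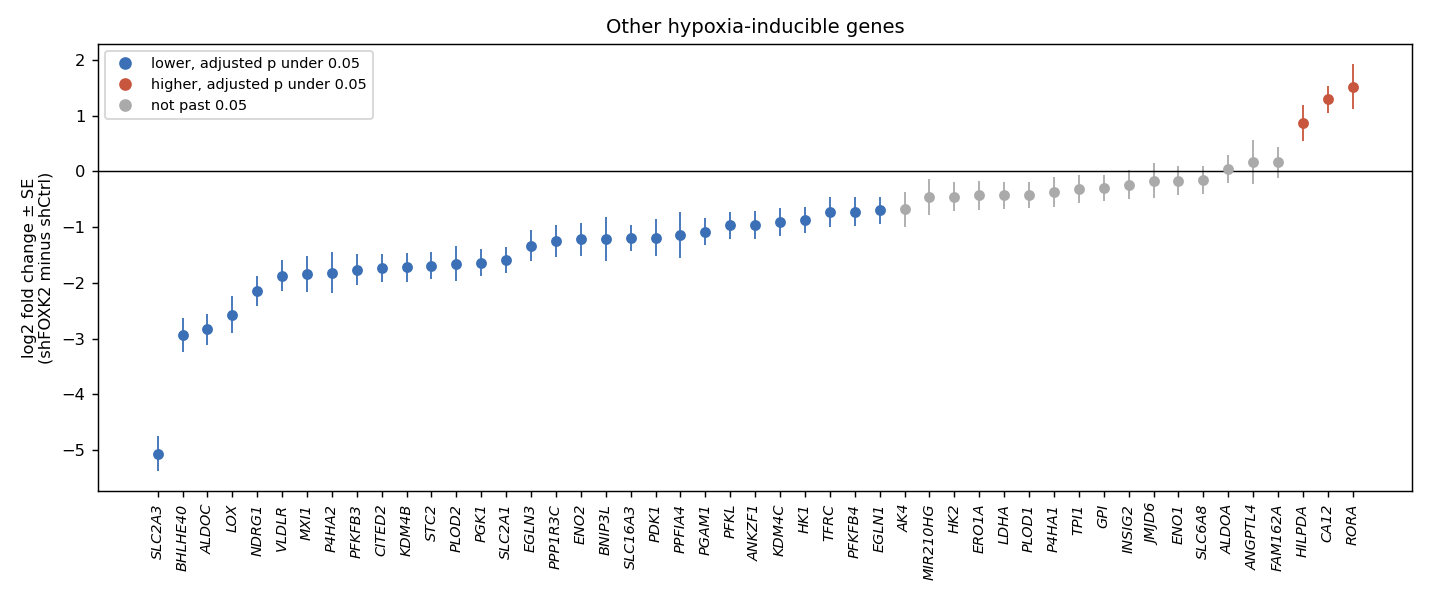
Log2 fold change (shFOXK2 minus shCtrl) ± SE of 49 other hypoxia-responsive genes, sorted by value and colored by call. The 30 lower genes run from SLC2A3 at −5.07 to EGLN1 at −0.70, and the 3 higher genes are HILPDA, CA12 and RORA.

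HIF1A, VEGFA, DDIT4 and KDM3A (also named JMJD1A) have been described as targets of XBP1. The mRNA of XBP1 is spliced by the sensor IRE1α in the unfolded protein response, and counts per gene do not measure that splicing. ERN1, which encodes IRE1α, went from 48.2 ± 3.80 to 11.6 ± 1.80 CPM (log2 fold change −2.06, SE 0.27), and XBP1 from 78.5 ± 8.07 to 23.6 ± 2.93 CPM (log2 fold change −1.73, SE 0.26), with adjusted p of 6.81e-05 and 0.000154. VEGFA (−2.06) and DDIT4 (−2.05) thus had log2 fold changes near that of ERN1, and HIF1A (−1.38) and KDM3A (−1.12) had smaller ones. The differences among these genes, and any part of XBP1 in them, were not tested.

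The genes whose profile over the 4 libraries lay nearest to that of HIF1A and of VEGFA were sought by Euclidean distance between centred log2 CPM, among the 10163 genes whose mean log2 CPM reached 3. Nearest to HIF1A were HINT3 (distance 0.237), RAPGEF2, FAT1, STEAP2 and LMLN (0.250). Each of them shared the excess of shCtrl replicate 1 over replicate 2, as in FAT1, counted 10713 and 4835 times against 2471 and 2760 in shFOXK2. Nearest to VEGFA was CEBPB, a basic leucine zipper factor gene, at a distance of 0.0276, counted 3676 and 3309 times in shCtrl against 779 and 620 in shFOXK2. PIK3CD, HLA-L, TMEM132A and IFI27 followed, at distances of 0.129 to 0.154. With 4 libraries in 2 groups, likeness of this kind mostly restates the group difference and the gap between replicates.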

How the data were processed

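Poly(A) RNA of 4 OVCAR5 libraries was sequenced single-end by the authors, who aligned reads to hg38 with STAR 2.5.2 and counted them per gene with HTSeq. They deposited raw counts per gene symbol, without normalization. The gene annotation and strand setting are not given in the sources used here. Groups and replicate numbers came from the titles, and no label says what equal numbers share.

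The 10 genes and the gene lists were chosen with earlier results of these data known. Genes were filtered with filterByExpr, scaled by TMM and compared by the 2-sided quasi-likelihood F test of edgeR 4.0.16 (R 4.3.3) with Benjamini-Hochberg adjustment over 16417 genes and a threshold of 0.05. The standard error of a log2 fold change is its size divided by the square root of F. With 2 libraries a group no permutation test can reach 0.05, so p-values rest on variance shared across genes and measure the spread between these libraries. Floors of 3 counts cover counting error only.

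Transcript length and composition came from canonical GENCODE v44 transcripts of hg38 (65.1% of symbols matched), and promoters from RefSeq. Alternatives were other scalings, filters and tests (DESeq2 1.42.0), glmTreat at a minimum log2 fold change of 1, offsets on GC or A content (lowess span 0.2), a replicate block and leaving out each library. Named genes were the 10, genes of the pathway lists by role, and of the other hypoxia genes the 5 largest changes each way with mean log2 CPM of at least 3, which gave 1 higher gene; SLC2A1, RORA and HILPDA were added after their values were seen. A listed hypoxia gene is not reported here. Tests were tried on simulated counts.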

Additional observations from a re-analysis of the deposited data

How the results depend on the processing

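Over 12 settings that left out no library, VEGFA and DDIT4 passed in each, CA9 in each of the 11 that tested it (requiring 10 counts in all libraries removed it), and HIF1A, EPAS1, ARNT and KDM3A in each except glmTreat at a minimum log2 fold change of 1 (adjusted p 0.136, 0.382, 0.156 and 0.420). ADM, BNIP3 and ANKRD37 passed in none, and ADM changed direction with the A-content offset (0.015). With any 1 library left out, 7 of the 10 remained lower. Under glmTreat 3386 genes passed in place of 7940, as did 3 of the 10 lower, 2 lower oxygen-sensing genes, 15 lower and 0 higher other hypoxia genes, and 1 lower and 0 higher VEGF genes. Higher oxygen-sensing genes numbered 2 with library size alone, no filter, DESeq2, the exact test or the crossed pairing (added after seeing the data), 4 with the GC offset, also with a block on replicate number, and 8 with the A-content offset. Higher VEGF genes numbered 2 with the GC offset, the GC offset with block and the A-content offset, under which VEGFB reversed to 0.014, 0.0096 and 0.11. Leaving out each library gave 5 to 9 lower and 1 to 3 higher oxygen-sensing genes and 0 or 1 higher VEGF gene, 0 without shCtrl replicate 1 or shFOXK2 replicate 2. The block on replicate number left 5 lower oxygen-sensing genes. Deviations of equal-numbered libraries from their group means correlated at r −0.113 over 16417 genes. With 2 libraries a group this cannot show whether equal numbers share anything. With the block 7270 genes passed and with the crossed pairing 8350, and of the 10 genes none changed call under the block. Except where stated, the cause was not tested. With 3 counts at 0.137 to 0.210 CPM, depth limits CA9 in shFOXK2 (9 and 8 counts) most.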
